A study of Rattus norvegicus with 2 samples.

Results

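Angptl4, Pdk4, Acot1, Acot2, Cpt1a, Acadl, Acadm and Plin2 are 8 genes of fat use that fasting and the nuclear receptor PPAR alpha are known to induce in liver, muscle and heart. They were taken by symbol from the 30017 symbols of the counts, and each symbol had a single identifier. The cells came from dorsal root ganglia (DRGs), which hold sensory neurons, the satellite glia around them, Schwann cells, vessels, fibroblasts and immune cells. The DPN library pooled the bilateral L3 to L6 ganglia of 5 male SD rats, taken 8 weeks after a single injection of 65 mg/kg streptozotocin (STZ), a toxin of the insulin-producing beta cells, which gave diabetic peripheral neuropathy (DPN). Injected rats entered the group by their blood glucose. The Control library pooled the same ganglia of 5 male SD rats injected with citrate buffer. All rats were purchased at 8 weeks of age, and DPN rats had been fasted before their injection. With 1 library per condition there was no replicate, so no p-value is given, and a difference between the libraries cannot be told apart from differences between rats or preparations.

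PPAR alpha is switched on by fatty acids, pairs with a retinoid X receptor and binds DNA at a direct repeat of a short half-site. Its targets release fatty acids from lipoproteins and droplets, carry them into mitochondria and peroxisomes and oxidize them, while pyruvate is held back from oxidation. Several of these genes also answer to PPAR delta, to glucocorticoids, to FoxO factors that insulin restrains, and, for Angptl4 and Plin2, to hypoxia.

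The files held 115409375 unique molecular identifiers (UMIs, counts of captured molecules) in 13168 DPN barcodes and 121101966 UMIs in 11011 Control barcodes. Cells with at least 1000 UMIs and under 20% of UMIs from mitochondrial (Mt-) genes numbered 11013 in DPN and 9798 in Control. Of all barcodes, 38 occurred in both libraries, and of the kept barcodes 31 did. Markers gated 6 cell types: satellite glia (3012 DPN and 4135 Control cells), myelinating Schwann cells (481 and 347), endothelium (1213 and 802), smooth muscle (584 and 385), fibroblasts (328 and 211) and macrophages (242 and 173). A further 5283 DPN and 3821 Control cells met no gate, and 124 DPN and 76 Control cells met more than 1 gate and count in each. Each marker list that the gates did not use had its highest summed level in its own gate in both libraries. The myelin list still summed to 1543 CPM in DPN satellite glia and 1973 CPM in Control. In satellite glia, Sfrp5 gave 750 of the 1410 CPM of the satellite glia list in DPN and 833 of 1468 CPM in Control. Glul of that list was higher in endothelium (333 CPM in DPN and 368 CPM in Control) than in satellite glia (201 and 144 CPM). Cadm2 was highest in myelinating Schwann cells in both libraries, and the other genes of the list were highest in satellite glia. Neuron markers, with all 8 detected in every gate, summed to 293 to 739 CPM over the 6 gates in DPN and 144 to 281 CPM in Control, higher in DPN in each, and their part in the results below was not tested.

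Levels are in CPM, the UMIs of a gene per 1000000 UMIs of the gated cells, and ratios are DPN over Control, followed in brackets by an exact 95% interval. Both cover counting error only. A gene is called higher or lower with a ratio of 1.5 or more or of 0.667 or less and at least 100 UMIs in both libraries together. Of the 48 pairs of gene and gate, 38 had 100 UMIs, of which 5 were higher, 5 lower and 28 within these limits, while 10 had too few UMIs. In satellite glia 25.7% of 10753 genes were higher and 2.29% lower by the same rule, and the median ratio of all genes was 1.14, that is 0.19 on the log2 scale. In the other gates 18.4% to 26.2% of genes were higher and 4.01% to 5.61% lower.

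**Figure D1:**
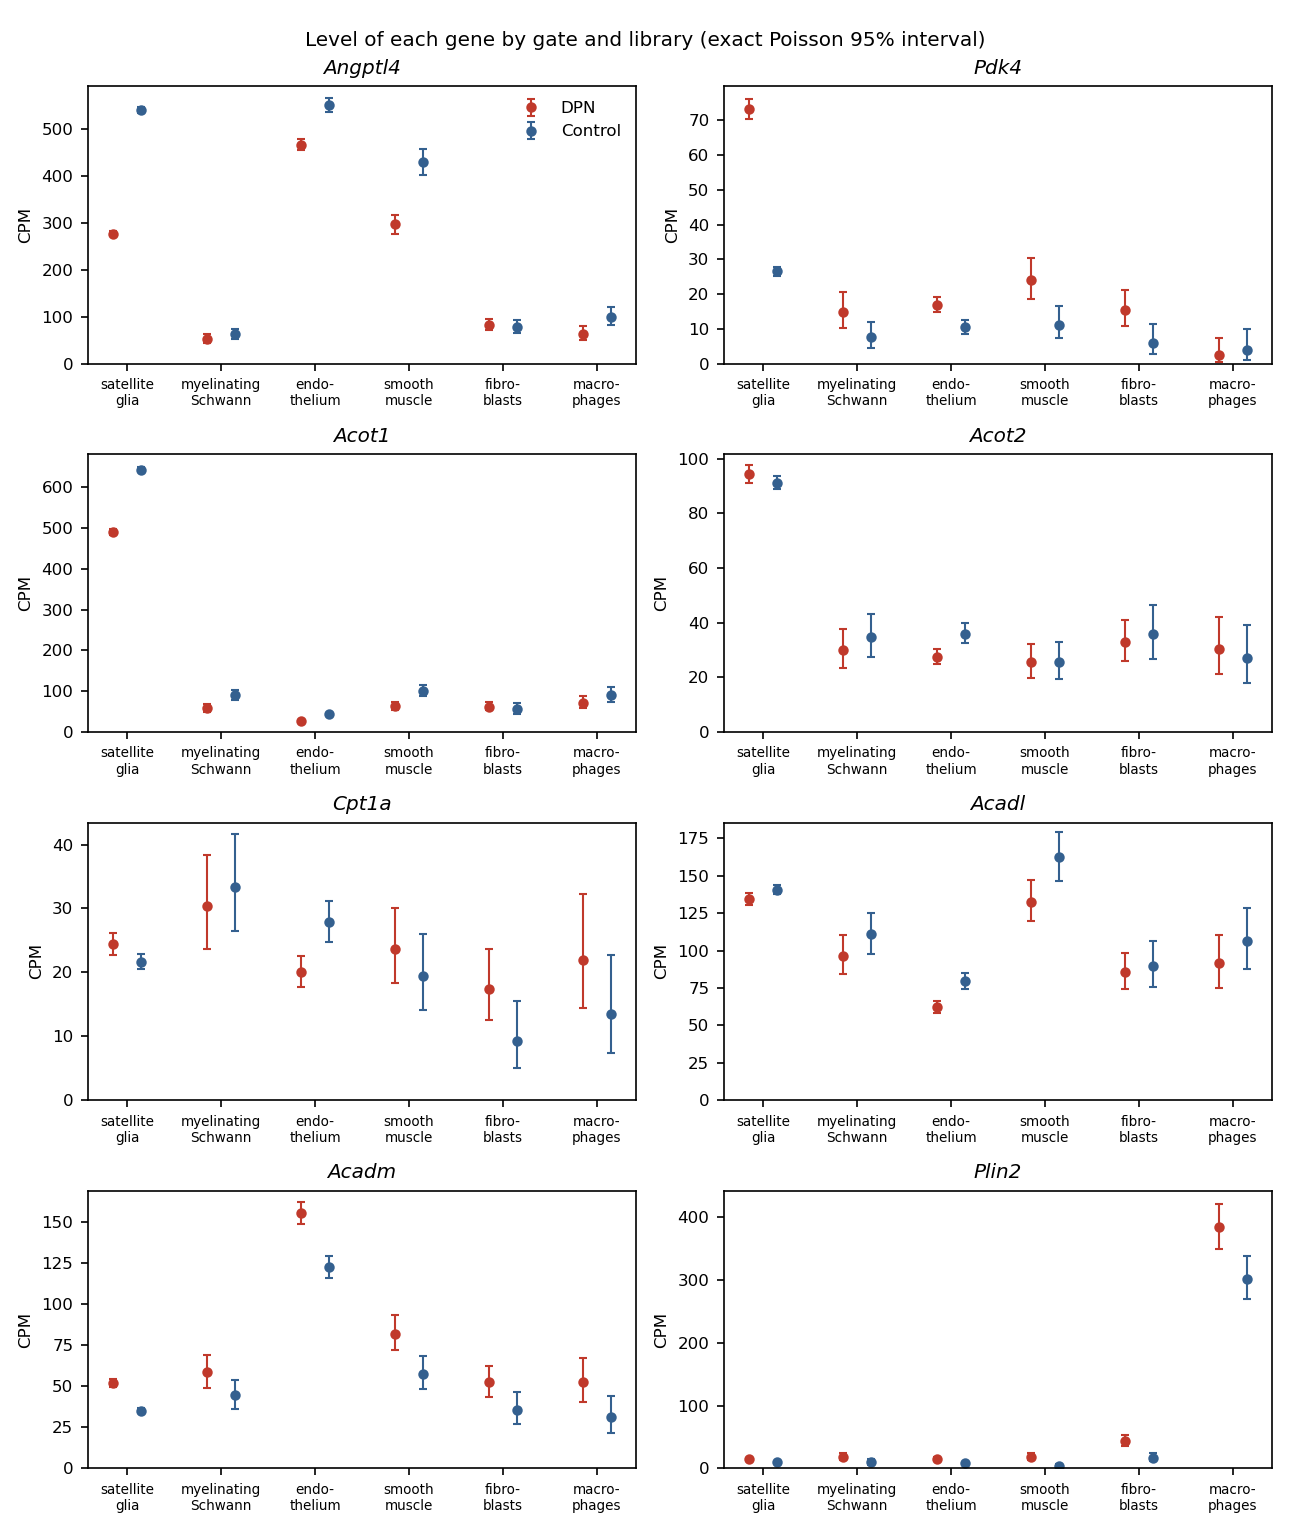
Level of each of the 8 genes, in CPM on a linear axis from 0, in the 6 gates for DPN (red, left) and Control (blue, right), with exact Poisson 95% intervals. In satellite glia Angptl4 lay at 277 CPM in DPN and 540 CPM in Control, and Pdk4 at 73.2 CPM in DPN and 26.5 CPM in Control.

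In satellite glia the members moved in opposite directions. Angptl4 had the lowest ratio of the 8 and Pdk4 the highest, while 5 of the 8 lay within 1.5-fold. Of the 8 members 2 were higher and 1 was lower, beside 25.7% and 2.29% of all genes, and 5 of 8 ratios exceeded 1, beside 64.3% of all genes. The median log2 ratio of the 8 members was 0.11, beside 0.19 for all genes.

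Angptl4 encodes a secreted inhibitor of lipoprotein lipase, the enzyme that frees fatty acids from circulating triglycerides. In satellite glia it had 9331 UMIs or 277 CPM in DPN and 31384 UMIs or 540 CPM in Control, a ratio of 0.512 [0.501 to 0.524]. Only 0.428% of genes with 100 UMIs in this gate had a ratio below it. The authors had already listed Angptl4 among the top downregulated genes of their satellite glia groups, so this rank is not independent evidence. After each cell was thinned to 1000 UMIs, 21.0% of DPN cells and 34.9% of Control cells kept an Angptl4 UMI, against 2.89% of DPN and 4.05% of Control macrophages, and unthinned shares in satellite glia were 70.8% and 88.0%. The difference ran through the distribution of cells. The median cell had 1.51 Angptl4 UMIs per 10000 in DPN and 3.60 in Control, and the cell at the 90th percentile 6.97 in DPN and 12.5 in Control. The highest 10% of cells by UMIs of the gene held 41.9% of the UMIs in DPN and 35.7% in Control.

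Pdk4 encodes a kinase that switches off pyruvate dehydrogenase and so spares glucose while fat is burned. It had 2470 UMIs or 73.2 CPM in DPN satellite glia and 1542 UMIs or 26.5 CPM in Control, a ratio of 2.76 [2.59 to 2.94], and 96.5% of genes had a lower ratio. A UMI remained after thinning in 6.61% of DPN and 2.42% of Control cells, against 0.413% of DPN and 1.16% of Control macrophages, and unthinned shares in satellite glia were 39.6% and 24.1%. Pdk4 was thus recorded in a minority of satellite glia of either library at these depths.

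Satellite glia of DPN were shallower, with a median of 11145 UMIs per cell against 13783 in Control, so the levels were also taken within groups of cells, chosen after the data had been seen. Over 4 ranges of UMIs per cell the Angptl4 ratio lay between 0.481 and 0.556 and the Pdk4 ratio between 2.60 and 2.91. Among cells at 12 to 24 Fabp7 and Tyrp1 UMIs per 10000, the gate genes of satellite glia, the ratios were 0.495 for Angptl4 and 2.62 for Pdk4. They were 0.541 and 2.95 at 24 or more. Most satellite glia had 10 to 20% Mt- UMIs, and the 105 DPN and 190 Control cells with 5 to 10% gave ratios of 0.390 for Angptl4 and 2.12 for Pdk4. The 22 DPN and 26 Control cells under 5% were too few to read, with 3 and 4 Pdk4 UMIs and an Angptl4 ratio of 0.703 [0.409 to 1.18]. The neuron list summed to 322 CPM in DPN satellite glia and 191 CPM in Control, and its part in these ratios was not tested. Red blood cell markers summed to 5.57 CPM in DPN and 34.9 CPM in Control.

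**Figure D2:**
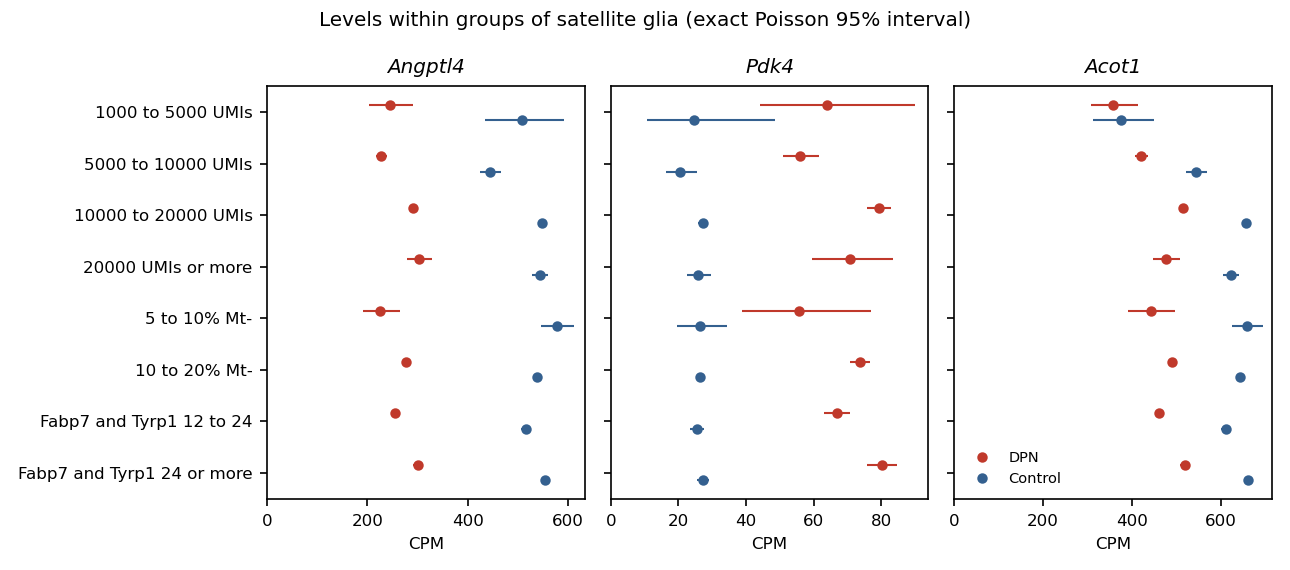
Levels of Angptl4, Pdk4 and Acot1 in CPM, on linear axes from 0, within groups of satellite glia by UMIs per cell, share of Mt- UMIs and Fabp7 and Tyrp1 UMIs per 10000, for DPN (red, above) and Control (blue, below) with exact Poisson 95% intervals. Angptl4 was lower and Pdk4 higher in DPN in each of the 8 groups drawn, with Angptl4 ratios of 0.390 to 0.556 and Pdk4 ratios of 2.12 to 2.95.

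As these genes stood at opposite ends, the bases just upstream of their starts are shown, credited to RefSeq with assembly GRCr8. The lines give 150 bases before the start in the promoter table, read on the minus strand of chr7:15258682-15258831 for Angptl4 and of chr4:34568330-34568479 for Pdk4, with any match to the motifs searched in capitals.
Angptl4: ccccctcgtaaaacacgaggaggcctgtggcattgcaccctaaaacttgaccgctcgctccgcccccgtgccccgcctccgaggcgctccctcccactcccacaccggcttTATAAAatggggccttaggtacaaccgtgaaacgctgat
Pdk4: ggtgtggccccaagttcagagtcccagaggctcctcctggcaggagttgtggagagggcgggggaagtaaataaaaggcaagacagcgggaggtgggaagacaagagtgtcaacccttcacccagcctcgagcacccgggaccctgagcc
Windows were given for 7 of the 8 members, and 250 bases before each start were searched. The PPAR half-site AGGTCA, sought on both strands, and its direct repeat with a spacer of 1 base (DR1, at most 2 mismatches in the half-sites together, overlapping the half-site search) had no match in any member window. Over all 33469 windows of the table, 14.1% held the half-site and 3.15% the DR1. No match says only that these letters are not in these windows. The TATA box TATAAA, sought on the gene strand, was found in the Angptl4 window alone, beginning at position -39, and in 8.06% of all windows. The Angptl4 start of the promoter table lies inside the span that RefSeq gives the gene.

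Acot1 and Acot2 encode thioesterases that free fatty acids from coenzyme A, in the cytosol and in mitochondria. They are closely related neighbours in a gene family, and how reads that fit both were handled is not stated, so their split is uncertain. Acot1 had 489 CPM in DPN satellite glia and 643 CPM in Control, a ratio of 0.761 [0.747 to 0.775], within 1.5-fold. Acot2 had 94.4 CPM in DPN and 91.3 CPM in Control, a ratio of 1.03 [0.989 to 1.08] whose interval includes 1. Acot1 was recorded in nearly every satellite glial cell, 90.6% in DPN and 95.6% in Control without thinning, and in 34.2% and 41.5% after it.

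Cpt1a encodes the gatekeeper that passes long-chain fatty acids to carnitine for entry into mitochondria. Its level in satellite glia was 24.4 CPM in DPN and 21.7 CPM in Control, with a ratio of 1.12 [1.03 to 1.23]. Acadl and Acadm encode the long- and medium-chain acyl-CoA dehydrogenases, which take the first step of each round of beta oxidation. Acadl had 135 CPM in DPN and 141 CPM in Control, with a ratio of 0.957 [0.923 to 0.992]. Acadm had 51.7 CPM in DPN and 34.9 CPM in Control, with a ratio of 1.48 [1.39 to 1.58], just inside the limit of 1.5. It was called higher with Mt- UMIs left out of the totals (1.503) and stood at 1.58 after thinning. The 2 dehydrogenases thus lay on either side of 1.

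Plin2 encodes a protein that coats lipid droplets and rises with stored fat. In satellite glia it had 504 UMIs or 14.9 CPM in DPN and 549 UMIs or 9.44 CPM in Control, a ratio of 1.58 [1.40 to 1.79], higher by the rule. This call was not kept with the gate minimums doubled (1.47) or after scaling to the median gene (1.39). Relative to the median gene of satellite glia, Angptl4 stood at 0.450, Pdk4 at 2.43, Acot1 at 0.669, Acadl at 0.841 and Acadm at 1.30, while Acot2 (0.909) and Cpt1a (0.987) changed to the other side of 1.

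**Figure D3:**
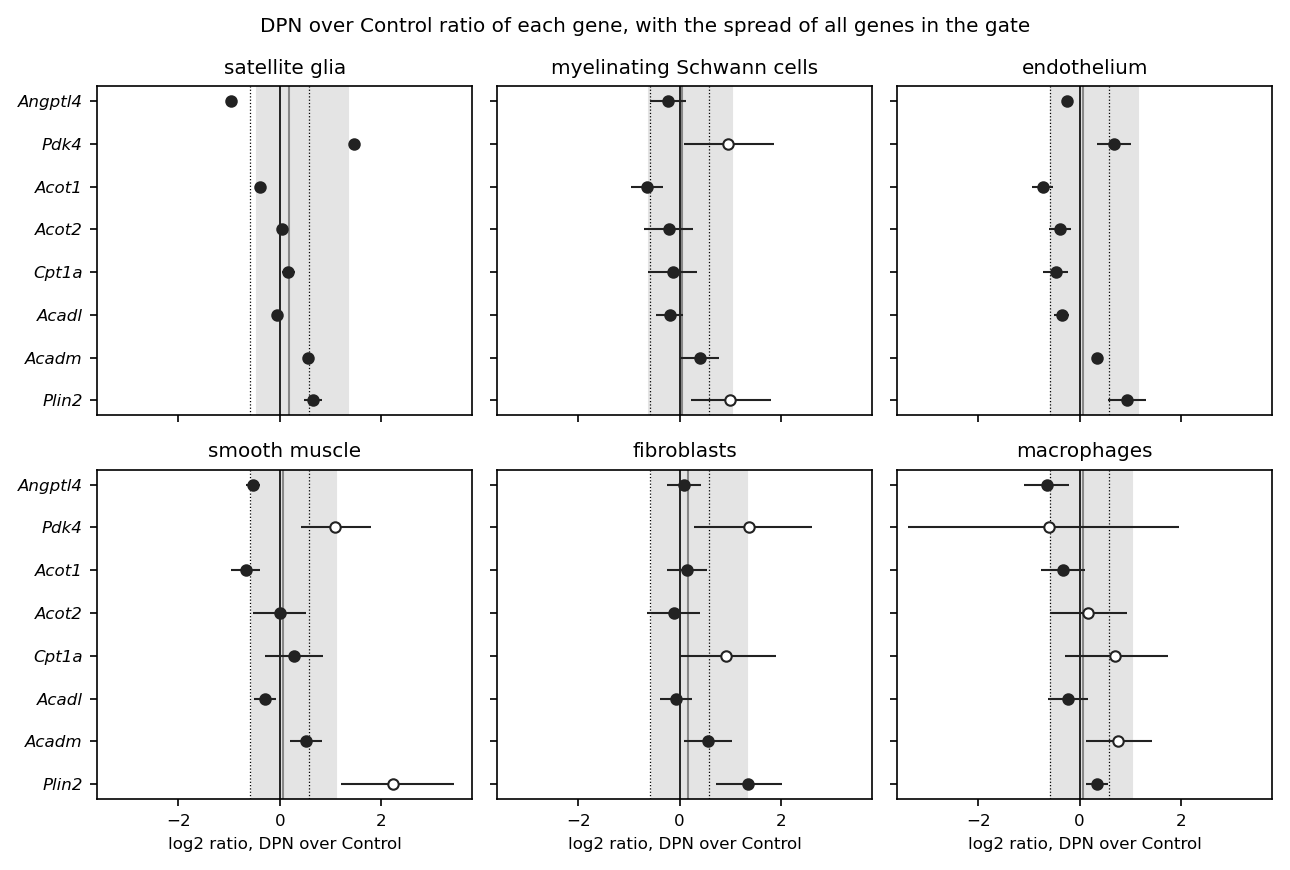
log2 ratio of DPN over Control for the 8 genes in each gate with exact 95% intervals, where filled points have at least 100 UMIs in both libraries together and open points fewer. Grey bands run from the 5th to the 95th percentile of all genes with 100 UMIs in the gate, grey lines mark their median, solid black lines a ratio of 1 and dotted lines 1.5-fold. In satellite glia Angptl4 (-0.97) and Pdk4 (1.46) lay outside the band.

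Outside satellite glia, Angptl4 was abundant in vessels. Endothelium held 465 CPM in DPN and 550 CPM in Control, a ratio of 0.846 [0.816 to 0.877], and smooth muscle 296 CPM in DPN and 428 CPM in Control, a ratio of 0.691 [0.630 to 0.758]. Both intervals left out 1, and neither ratio passed 1.5-fold, although smooth muscle did so after scaling to the median gene (0.658). Levels in the other gates were 52.8 to 82.3 CPM in DPN and 62.2 to 99.7 CPM in Control. In DPN the order of gates ran endothelium, smooth muscle, satellite glia, and then fibroblasts, macrophages and myelinating Schwann cells, of which smooth muscle and satellite glia overlapped in their intervals, as did fibroblasts with macrophages and macrophages with myelinating Schwann cells. In Control the intervals of endothelium and satellite glia overlapped at the top, smooth muscle stood below, and of the last 3 gates fibroblasts overlapped macrophages and myelinating Schwann cells, which were apart from each other.

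Macrophages had 75 Angptl4 UMIs or 63.4 CPM in DPN and 103 UMIs or 99.7 CPM in Control, a ratio of 0.636 [0.466 to 0.865], lower by the rule, as 4.63% of genes in this gate were. Fabp7 and Tyrp1, which mark satellite glia, summed to 259 CPM in DPN macrophages and 461 CPM in Control. Per Fabp7 or Tyrp1 UMI there were 0.245 Angptl4 UMIs in DPN and 0.216 in Control macrophages, beside 0.109 in DPN and 0.186 in Control satellite glia and 4.39 in DPN and 4.06 in Control endothelium. The part of glial RNA in the macrophage value was not tested. Without cells in more than 1 gate, the ratio was 0.693 and no longer called. Myelinating Schwann cells (0.850 [0.663 to 1.09]) and fibroblasts (1.06 [0.836 to 1.34]) had intervals that include 1, and the fibroblast ratio was 0.947 after scaling to the median gene. The myelinating ratio was 2.34 with a limit of 10% on Mt- UMIs and 0.473 with the gate minimums doubled, so its direction was not settled.

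Pdk4 exceeded 1 in 5 of 6 gates. Endothelium had 230 UMIs or 16.8 CPM in DPN and 109 UMIs or 10.5 CPM in Control, a ratio of 1.60 [1.27 to 2.03], called higher as 18.7% of genes in this gate were. With a limit of 10% on Mt- UMIs it was 1.49 and no longer called. The ratios of 1.93 in myelinating Schwann cells (34 DPN and 18 Control UMIs), 2.14 in smooth muscle (68 and 26 UMIs) and 2.58 in fibroblasts (37 and 9 UMIs) had intervals above 1 but too few UMIs to be called. In thinned fibroblasts the Pdk4 ratio was 0.965, from shares of 0.915% of DPN and 0.948% of Control cells. Macrophages had 3 Pdk4 UMIs in DPN and 4 in Control. Satellite glia held the highest level of Pdk4 in both libraries, apart from every other gate in their intervals.

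Acot1 was highest in satellite glia by a wide margin, and its level elsewhere was 25.7 to 71.9 CPM in DPN and 42.6 to 101 CPM in Control. It was called lower in myelinating Schwann cells (57.6 CPM in DPN and 90.1 CPM in Control, ratio 0.639 [0.511 to 0.798]), endothelium (25.7 and 42.6 CPM, 0.602 [0.522 to 0.694]) and smooth muscle (63.2 and 101 CPM, 0.628 [0.514 to 0.767]). All genes were lower in 5.61%, 4.58% and 4.01% of cases in these 3 gates. Per Fabp7 or Tyrp1 UMI, Acot1 had 0.242 to 0.393 UMIs in DPN and 0.195 to 0.335 in Control over the 5 gates outside satellite glia, and 0.193 in DPN and 0.222 in Control satellite glia. Fabp7 and Tyrp1 themselves were lower in DPN in all 5 gates. They stood at 181 against 407 CPM in myelinating Schwann cells, 106 against 136 CPM in endothelium and 226 against 300 CPM in smooth muscle. In macrophages they stood at 259 against 461 CPM, and in fibroblasts, where the Acot1 ratio exceeded 1, at 158 against 183 CPM. Without cells in more than 1 gate, the Acot1 ratio was 0.798 in myelinating Schwann cells, 0.676 in endothelium and 1.11 in smooth muscle, and none was called. The part of glial RNA in these ratios was not tested. Fibroblasts (1.10 [0.839 to 1.46]) and macrophages (0.799 [0.588 to 1.08]) had intervals that include 1, and fibroblasts stood at 0.989 after scaling to the median gene.

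Acot2 lay within 1.5-fold in all 5 gates with 100 UMIs. Its lowest ratio was 0.764 [0.660 to 0.884] in endothelium, with 27.5 CPM in DPN and 36.0 CPM in Control, and the other gates outside satellite glia had ratios of 0.862 to 1.12 with intervals that include 1. Satellite glia again held the highest level. The next 5 gates of Acot2 overlapped their neighbours in order, at 25.4 to 32.8 CPM in DPN and 25.5 to 36.0 CPM in Control.

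Cpt1a was spread over all gates, from 17.5 to 30.3 CPM over the gates in DPN and from 9.25 to 33.4 CPM in Control. In DPN each gate overlapped its neighbour in the order. Its ratio lay on both sides of 1, at 0.721 [0.609 to 0.853] in endothelium, with 20.04 CPM in DPN and 27.8 CPM in Control, and at 1.89 [1.01 to 3.74] in fibroblasts, from 42 DPN and 14 Control UMIs. Neither was called.

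Acadl was below 1 in all 6 gates, with ratios of 0.781 to 0.957, although it stood at 1.01 in satellite glia with a limit of 10% on Mt- UMIs and at 1.29 in thinned fibroblasts. Of 6097 genes with 20 UMIs in every gate, 14.6% were below 1 in all 6. Acadl was lowest in endothelium, at 62.1 CPM in DPN and 79.5 CPM in Control (ratio 0.781 [0.709 to 0.861]), and highest in smooth muscle and satellite glia, at 133 and 135 CPM in DPN and 162 and 141 CPM in Control. Acadm by contrast was highest in endothelium, at 155 CPM in DPN and 122 CPM in Control, apart in its interval from every other gate.

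Acadm and Plin2 were above 1 in all 6 gates, and stayed so under each of 9 processing alternatives. Of the 6097 genes with 20 UMIs in every gate, 33.6% were above 1 in all 6. Acadm ratios were 1.27 [1.18 to 1.36] in endothelium, 1.32 in myelinating Schwann cells, 1.43 in smooth muscle, 1.47 in fibroblasts and 1.69 in macrophages, the last from 62 DPN and 32 Control UMIs. No Acadm ratio was called, that of macrophages for too few UMIs. After thinning, the ratios ran between 1.07 in fibroblasts and 5.004 in macrophages, where 14 DPN and 2 Control cells kept an Acadm UMI.

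Plin2 had a different place in the ganglion. Macrophages held 384 CPM in DPN and 302 CPM in Control, a ratio of 1.27 [1.10 to 1.47], and after thinning 30.6% of DPN and 30.1% of Control macrophages had a Plin2 UMI, against 1.63% and 0.992% of satellite glia. Fibroblasts came next, with 105 UMIs or 43.6 CPM in DPN and 26 UMIs or 17.2 CPM in Control, a ratio of 2.54 [1.64 to 4.07]. They were called higher, as 26.2% of genes in fibroblasts were (4.1% were lower). Macrophages were apart in their interval from every other gate in both libraries. Fibroblasts were apart from the remaining gates in DPN, whereas in Control their interval overlapped that of myelinating Schwann cells.

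Endothelium had 209 Plin2 UMIs or 15.3 CPM in DPN and 83 UMIs or 7.99 CPM in Control, a ratio of 1.91 [1.48 to 2.50], also called higher. In smooth muscle 52 DPN and 9 Control UMIs gave 4.73 [2.31 to 10.9] and in myelinating Schwann cells 43 and 22 UMIs gave 2.001 [1.17 to 3.51], both with too few UMIs to be called. Smooth muscle thinned to 1000 UMIs per cell gave 1.98. Macrophage markers summed to 202 CPM in DPN smooth muscle and 50.1 CPM in Control, with all 7 detected, and their part in the Plin2 value was not tested. In endothelium they summed to 27.6 CPM in DPN and 20.3 CPM in Control, and in fibroblasts to 14.1 CPM in DPN and 61.5 CPM in Control. Their part in the Plin2 ratios of these 2 gates was not tested either.

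Counted by gate, endothelium had 2 members higher and 1 lower, fibroblasts 1 higher and none lower, and myelinating Schwann cells, smooth muscle and macrophages none higher and 1 lower each. Of all genes, 18.7% were higher and 4.58% lower in endothelium, and 26.2% and 4.1% in fibroblasts. In the last 3 gates 18.5%, 18.4% and 18.6% were higher and 5.61%, 4.01% and 4.63% lower. With at least 20 UMIs in place of 100, 2 members were higher in each of these 3 gates and 3 in fibroblasts. The shares of all genes given here use 100 UMIs, so these added calls have no background beside them. The median log2 ratio of the 8 members ran between -0.30 in endothelium and 0.35 in fibroblasts, beside 0.059 and 0.16 for all genes.

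The receptors themselves were mostly scarce. Ppara, for which the response is named, had 43 UMIs or 1.27 CPM in DPN satellite glia and 35 UMIs or 0.602 CPM in Control, and at most 7 UMIs in any other gate and library. Pparg, the receptor of fat cell formation, had 9 DPN and 8 Control UMIs in satellite glia. Ppard, the widely expressed member, had 51.5 CPM in DPN satellite glia and 58.7 CPM in Control (ratio 0.878 [0.828 to 0.930]) and 73.0 CPM in DPN endothelium and 60.2 CPM in Control.

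**Figure D4:**
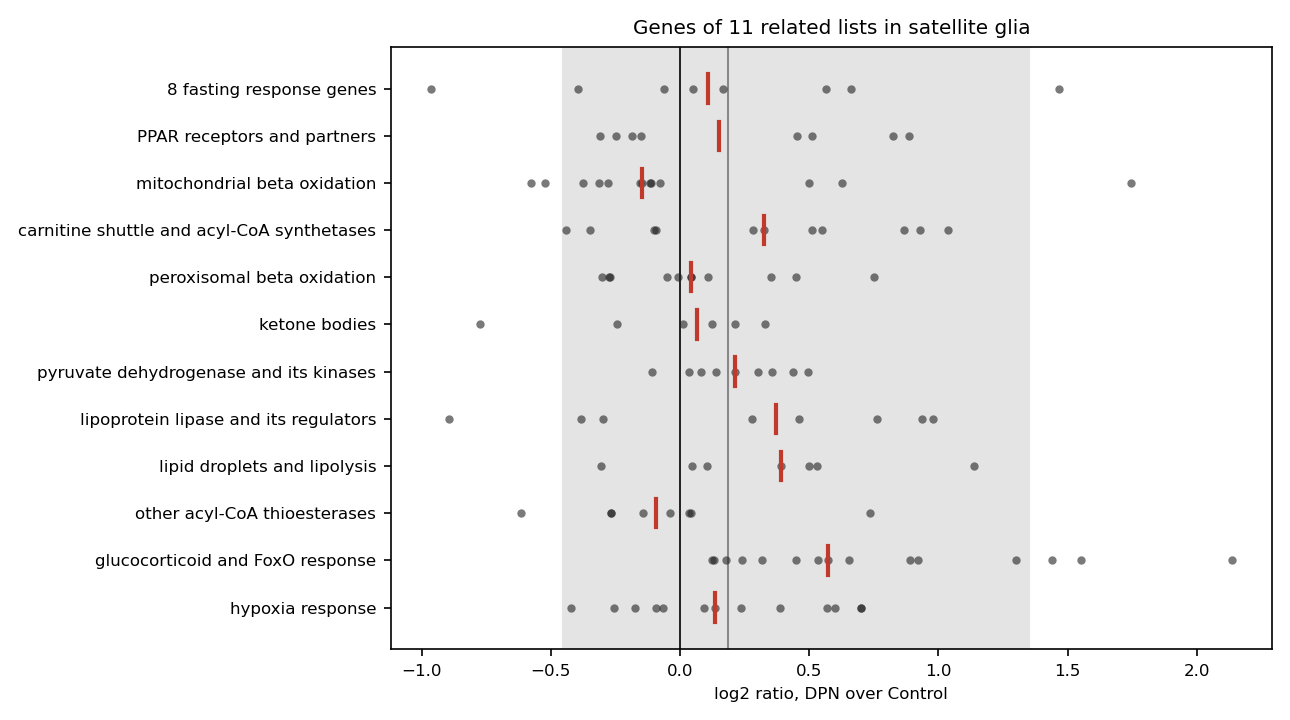
log2 ratio of DPN over Control in satellite glia of the 8 genes and of the genes with at least 100 UMIs in 11 related lists. Each point is a gene, red bars are list medians, the grey band runs from the 5th to the 95th percentile of all genes and the grey line is their median of 0.19. The glucocorticoid and FoxO response list lay wholly above 0 with a median of 0.57, and the mitochondrial beta oxidation list had a median of -0.15.

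Genes of related steps were read from 11 lists, which hold 137 genes, 133 of them in the counts. Their counts in satellite glia stand beside 64.3% of all genes above 1, 25.7% higher and 2.29% lower. Of the mitochondrial beta oxidation genes in satellite glia, 3 of 13 exceeded 1, 2 were higher and none lower, with a median log2 ratio of -0.15. Acadsb, the dehydrogenase of short branched-chain acyl-CoA from isoleucine, was the highest, at 33.0 CPM in DPN and 9.86 CPM in Control (3.35 [3.03 to 3.71]). In endothelium 2 of 13 exceeded 1, beside 54.5% of all genes, both called higher, with a median of -0.45 beside 0.059, and Acadsb was again the highest (2.11 [1.38 to 3.29]). It was highest also in myelinating Schwann cells (1.82), where Decr1, which prepares unsaturated fatty acids for oxidation, was the lowest (0.665 [0.512 to 0.861]). Hadha, a subunit of the trifunctional protein, was higher in fibroblasts (1.97 [1.49 to 2.62]) and macrophages (1.91), and Hadh, which acts on shorter hydroxyacyl-CoA, was lower in smooth muscle (0.646).

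The carnitine shuttle and acyl-CoA synthetase list had 7 of 11 above 1 in satellite glia, with 3 higher and none lower and a median of 0.32. Crat, the carnitine acetyltransferase, led it at 1.84 CPM in DPN and 0.894 CPM in Control (2.05 [1.40 to 3.03]). Acsl4, which activates arachidonic acid, was higher in smooth muscle (1.96) and fibroblasts (2.13 [1.60 to 2.86]). For peroxisomal beta oxidation, 6 of 11 exceeded 1 in satellite glia with a median of 0.043, and Ehhadh, the peroxisomal bifunctional enzyme and a classical PPAR alpha target in rodent liver, was the only one higher, at 7.08 CPM in DPN and 4.21 CPM in Control (1.68 [1.40 to 2.02]). The list led with Acox3 in endothelium (1.92) and Crot in fibroblasts (1.72). Ketone body genes had 4 of 6 above 1 and a median of 0.066, with Bdh2 lower at 7.11 CPM in DPN and 12.2 CPM in Control (0.584 [0.502 to 0.677]), and Oxct1, which uses ketone bodies, higher in smooth muscle (1.53).

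The pyruvate dehydrogenase list, which holds the complex and the kinases other than Pdk4, had 8 of 9 above 1 in satellite glia but none called, with a median of 0.21 beside 0.19 for all genes. Pdha1, a catalytic subunit, was higher in smooth muscle (1.55) and fibroblasts (1.76). Lipoprotein lipase itself (Lpl), the target of Angptl4, was higher in satellite glia at a very low level of 1.66 CPM in DPN and 0.843 CPM in Control (1.97 [1.32 to 2.95]). It was lower in endothelium (11.99 CPM in DPN and 18.0 CPM in Control, 0.667 [0.537 to 0.826]) and in fibroblasts (44.9 and 70.7 CPM, 0.635 [0.481 to 0.837]). Of its list in satellite glia 3 of 8 were higher and 1 was lower, which was Angptl6 (0.537). Elsewhere the list led with Sel1l, of endoplasmic reticulum quality control, in myelinating Schwann cells (1.76) and smooth muscle (2.26), Vldlr in endothelium (1.73) and Angptl1 in fibroblasts (3.90 [2.54 to 6.21]).

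Of the lipid droplet list, 6 of 7 exceeded 1 in satellite glia and G0s2, an inhibitor of the lipase Pnpla2 and a PPAR target, was higher, at 62.5 CPM in DPN and 28.4 CPM in Control (2.20 [2.06 to 2.35]). In fibroblasts G0s2 was lower (0.523 [0.387 to 0.705]), and in myelinating Schwann cells Dgat2, which completes triglyceride synthesis, was lower (0.579). The other thioesterases had 3 of 8 above 1 in satellite glia with Them6 highest (1.67) and Acot3 lowest (0.653). Acot3 belongs to the same gene family as Acot1. Acot13 was lower in endothelium (0.590) and Acot9 higher in fibroblasts (1.72). PPAR partners had 4 of 8 above 1 in satellite glia and a median of 0.15, with the coactivator Ppargc1a highest, at 74 UMIs in DPN and 69 in Control (1.85 [1.31 to 2.60]). The coactivator Med1 was higher in endothelium (2.02) and smooth muscle (2.17), the corepressor Ncor1 in fibroblasts (1.81), and the receptors Rxrb in myelinating Schwann cells (0.655) and Rxrg in endothelium (0.608) were lower.

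Glucocorticoid and FoxO response genes had all 15 of 15 above 1 in satellite glia, of which 7 were higher and none lower, with a median of 0.57. These stand beside 64.3%, 25.7% and 2.29% of all genes in the gate. Pdk4 is known to answer to both signals, and their part in its ratio was not tested. Txnip, which restrains glucose uptake, had 163 CPM in DPN and 37.0 CPM in Control (4.39 [4.18 to 4.62]). Among known glucocorticoid targets, Per1 and Zbtb16 had ratios of 2.71 and 2.93, and Fkbp5 (1.18 [0.970 to 1.43]), Tsc22d3 (1.09) and Klf9 (1.10) lay within 1.5-fold. Foxo3, a FoxO factor, had a ratio of 2.46. In myelinating Schwann cells 10 of 10 exceeded 1, beside 53.8% of all genes, and 2 were higher, beside 18.5%. In endothelium 10 of 14 exceeded 1, beside 54.5% of all genes, and 4 were higher, beside 18.7%, with Per1 leading (3.29 [2.29 to 4.84]). Txnip led in myelinating Schwann cells (2.41), smooth muscle (1.68) and macrophages (1.66), Cdkn1a in fibroblasts (2.27), where Klf15 was lower (0.612).

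Hypoxia response genes had 8 of 13 above 1 in satellite glia with 3 higher, none lower and a median of 0.14. Pfkfb3, which speeds glycolysis, was the highest there, at 154 CPM in DPN and 95.01 CPM in Control (1.63 [1.57 to 1.69]), and in myelinating Schwann cells (1.85), where Ankrd37 was lowest (0.649). The RNA of Hif1a, which encodes the oxygen-sensitive factor itself, led in endothelium (1.58), smooth muscle (1.66), fibroblasts (2.31) and macrophages (1.74). In endothelium 4 of 12 genes of the list exceeded 1, beside 54.5% of all genes, with a median of -0.067. Above 1 were 7 of 12 in smooth muscle, 7 of 12 in fibroblasts and 5 of 8 in macrophages, beside 55.3%, 61.4% and 54.3% of all genes.

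Likeness over the 12 sums (6 gates in 2 libraries) was measured as Pearson's r of log2(CPM + 1) among 7457 genes, and describes mainly differences between cell types, since sums of a library share its preparation and depth. Angptl4 was most like Bcr (0.938), Trex1 and Phlda1, and Pdk4 most like Jag1 (0.938), Cog4 and Clpx. Acot1 was most like Dbi (0.984), Aldoc and Mmd2, and Acot2 most like Amacr (0.944), Dad1 and Fbln5. Cpt1a was most like Acot8 (0.904), Ppil2 and Hiatl3, Acadl most like Ndufb6 (0.932), Suclg1 and Gipc1, Acadm most like Dll4 (0.980), Ptprb and Kmt2e, and Plin2 most like Dusp22 (0.969), Serpinb1a and Ctss. No member was among the 3 genes most like another. Between members, r was highest for Acot1 and Acot2 (0.870) and lowest for Pdk4 and Plin2 (-0.56), and Angptl4 and Pdk4 had 0.525.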

How the data were processed

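Single cells of DRGs were measured in 1 DPN and 1 Control library (10x Genomics 3′ v3 kit). The authors deposited raw UMI counts, obtained with STAR and Cell Ranger 3.1.0. The version of STAR and the genome build are not given in the sources used here. Identifiers that share a symbol were summed (147 symbols, no member among them). Cells were gated per 10000 UMIs on Fabp7 and Tyrp1 (12), Prx, Mag and Cldn19 (5), Cldn5, Flt1 and Cdh5 (10), Myh11 (2), Lum (5) and C1qa, C1qb and C1qc (10). No doublet caller was run, and no upper limit on UMIs was set. Intervals are exact Poisson for levels, exact conditional binomial for ratios and exact binomial for shares, and cover counting error only.

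The members, lists and gates were chosen with earlier results of these data known, so no list is independent evidence of its direction. Genes named were the 8 members, the highest and the lowest called gene of each list in each gate and the 3 most like genes of each member, with a mean of at least 10 CPM. Fkbp5, Tsc22d3, Klf9, Zbtb16, Foxo3, Ppara, Ppard and Pparg, and Per1 in satellite glia, were named after their values were seen. Promoter windows came from RefSeq (GRCr8). Protein identity between members was not analysed here. Alternatives were Mt- limits, UMI minimums, gate rules, scaling, cell weights and thinning. Groups of satellite glia by depth, Mt- share and marker level were added once values were known. The ratio and its interval were tested on simulated data. Python 3.11.15, numpy 2.4.6, scipy 1.17.1 and pandas 2.3.3 were used.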

Additional observations from a re-analysis of the deposited data

Results flagged for a closer look

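Cpt1a stood on opposite sides of 1 in different gates, with ratios of DPN over Control of 1.12 in satellite glia and 1.89 in fibroblasts and of 0.721 in endothelium, each with an interval that leaves out 1. The difference between gates was not tested, and the fibroblast value rests on 42 DPN and 14 Control UMIs. The median ratio of all genes in satellite glia was 1.14. After scaling to the median gene, the Cpt1a ratio there was 0.987, on the same side of 1 as endothelium. In the 5283 DPN and 3821 Control cells that met no gate, which the comparisons do not use, Pdk4 had a ratio of 2.10 [1.88 to 2.35] and Plin2 a ratio of 1.54 [1.41 to 1.68].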

How the results depend on the processing

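No paired analysis was possible because there was only a single pooled library for DPN and for Control. Over 9 alternatives of the 48 member ratios, 369 values stayed within the interval of the ratio reported and 59 left it. These counts leave out the 4 values named below. On 1 side of 1 throughout were 31 of the 48 pairs, while 17 crossed it in at least 1 alternative. Past 1.5-fold, 4 values crossed it, which were Pdk4 in fibroblasts (0.965, thinned to 1000 UMIs), Pdk4 in macrophages (1.35, cells weighted equally), Acot1 in smooth muscle (1.11, cells in more than 1 gate left out) and Cpt1a in macrophages (0.894, thinned). With at least 20 UMIs per gene the list medians in fibroblasts changed sign for the carnitine shuttle (-0.14) and lipid droplets (0.031).

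In satellite glia, a limit of 10% on Mt- UMIs left 127 DPN and 216 Control cells and gave ratios of 0.407 for Angptl4, 2.004 for Pdk4, 0.706 for Acot1, 1.09 for Acot2, 1.74 for Cpt1a, 1.01 for Acadl and 1.32 for Acadm, with 0 members higher because too few UMIs remained. Doubled gate minimums gave 0.541 for Angptl4, 2.95 for Pdk4, 0.785 for Acot1 and 0.918 for Acadl, with 1 member higher. Median-ratio scaling gave 0.450 for Angptl4, 2.43 for Pdk4, 0.669 for Acot1, 0.909 for Acot2, 0.987 for Cpt1a, 0.841 for Acadl, 1.30 for Acadm and 1.39 for Plin2, with 1 member higher. Leaving Mt- UMIs out of the totals gave 3 higher, as Acadm reached 1.503, and thinning put Acadm at 1.58.

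Counts of called members elsewhere changed as follows. A limit of 10% on Mt- UMIs gave 0 lower in myelinating Schwann cells and macrophages and 1 higher in endothelium. Leaving out cells in more than 1 gate gave 0 lower in myelinating Schwann cells, endothelium, smooth muscle and macrophages, as did equal cell weights. Doubled minimums gave 0 lower in endothelium, smooth muscle and macrophages, and median-ratio scaling 2 lower in smooth muscle. Thinning gave 0 lower in myelinating Schwann cells, smooth muscle and macrophages and 0 higher in endothelium and fibroblasts. In macrophages Angptl4 stood at 0.408 with doubled minimums, 0.544 with the 10% limit and 0.635 after thinning. These ratios pass the limit, so its call was lost there for too few UMIs. After thinning, Pdk4 (2.38) and Plin2 (2.53) in endothelium and Plin2 (1.501) in fibroblasts also had too few UMIs to be called. With 20 UMIs, or with 1 UMI in each library, 2 members were higher in myelinating Schwann cells, smooth muscle and macrophages and 3 in fibroblasts, and with 1 UMI in each library 2 were lower in macrophages. At a limit of 2-fold, 1 was higher and 0 lower in satellite glia, 0 higher in endothelium and 0 lower in myelinating Schwann cells, endothelium, smooth muscle and macrophages. Shares of all genes called under these alternatives are not given, so the changed counts have no background beside them. The causes of these changes were not tested beyond what is stated. Depth limits the small gates, where 10 of 48 pairs had under 100 UMIs.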

Other observations

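In the cells that met no gate, Angptl4 had 102 CPM in DPN and 222 CPM in Control, a ratio of 0.458 [0.443 to 0.475], and Acot1 165 CPM in DPN and 257 CPM in Control, a ratio of 0.644 [0.625 to 0.663]. Acadm had 53.8 CPM in DPN and 40.4 CPM in Control (1.33), and Acot2, Cpt1a and Acadl had ratios of 0.939, 0.888 and 0.938. These cells are a mixture of types that the gates leave out, and their makeup in each library was not analysed here.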
